A study of Mus musculus with 24 samples.

Results

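The comparison set Lgr5high cells, the gate with the brightest Lgr5 reporter, against Lgr5med cells, the next gate down, in mice that received only the vehicle. It rests on 6 of the 24 libraries of the series, 3 of Lgr5high and 3 of Lgr5med cells. Both gates of each of the 3 mice were sequenced, and the libraries were paired by mouse through the shared first part of their description labels. All mice were male C57BL/6 with the Lgr5-EGFP reporter, of which the labels say no more, and the labels call them littermates although they give different ages. PBS mice were injected with vehicle into the peritoneum every 12 h for 5 days and tissue was taken on day 6. The mice of replicates 1 and 2 were 15 weeks old and that of replicate 3 was 11 weeks old, so age and mouse 3 cannot be told apart. Live small-intestinal crypt cells without CD31 or CD45 were sorted on EGFP, and both gates were CD24low. The labels name Lgr5high cells as crypt base columnar stem cells and Lgr5med cells as immediate progenitors. Lgr5low and Lgr5neg libraries of the same mice also entered the fit, where they bore on the genes tested, the scaling, the spread and the mouse terms. In addition, 3 further mice, given 7.5 µg of NRG1 on the same schedule, served as a repeat.

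Crypt base columnar cells divide at the bottom of the small-intestinal crypt, between Paneth cells, and are kept there by Wnt and R-spondin signals, for which LGR5 is a receptor. Their daughters move upward, and Notch signalling sorts them into absorptive and secretory fates. A daughter that escapes Notch activation expresses the transcription factor ATOH1 and can become a goblet, enteroendocrine or Paneth cell, while others become enterocytes. The step from Lgr5high to Lgr5med is the first step out of the stem cell gate.

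Lgr5, the gene whose reporter set the gates (chr10:115450311-115587780, GRCm38), stood at 225, 103 and 184 CPM in the Lgr5high libraries of mice 1, 2 and 3, against 51.7, 15.7 and 19.0 CPM in the Lgr5med libraries. CPM are counts scaled to library size with TMM factors, computed within the 12 PBS libraries. The groups did not overlap, and the log2 difference, Lgr5high minus Lgr5med, was 2.63 (SE 0.451). Since the sort chose the cells on it, this value checks the labels and is no finding. Olfm4, a secreted glycoprotein used as a stem cell marker (chr14:79984081-80023139), was at 2567, 1754 and 2354 CPM in Lgr5high, against 1148, 535 and 557 CPM in Lgr5med cells. It rose in Lgr5high cells by 1.61 (SE 0.241, adjusted p = 0.000558). Zg16, which encodes a lectin of goblet cells (chr7:127050156-127087328), was at 14.2, 65.4 and 24 CPM in Lgr5high, against 414, 1048 and 1456 CPM in Lgr5med cells. It fell by 4.84 on the log2 scale (SE 0.587, adjusted p = 0.00211), which is 28.6-fold. Lgr5 and Olfm4 were thus higher in the gate that the labels name as stem cells, and Zg16 in that of the immediate progenitors. Cd24a, which encodes the surface protein held low in both gates, had a log2 difference of 0.11 (adjusted p = 0.755), and the epithelial marker Epcam one of 0.01.

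Total counts of the 6 libraries ran from 16980822 to 21251302, and 13074 to 13616 genes had at least 10 counts in a library. Mitochondrial ribosomal RNA took 46.56%, 43.25% and 43.59% of the counts in Lgr5high and 43.44%, 37.56% and 38.47% in Lgr5med libraries, the larger share in Lgr5high cells in each mouse. That left 10163890 to 12060335 other counts per library. The floor of 3 counts, up to which a gene with no count may lie, equalled 0.141 to 0.177 CPM. Floors cover counting error only.

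Of 14203 genes tested, 1755 (12.4%) were called at an adjusted p under 0.05 by edgeR's quasi-likelihood test with the mouse as a block. Genes lower in Lgr5high cells outnumbered those higher, with 535 (3.77% of the genes tested) higher and 1220 (8.59%) lower. At over 2-fold the imbalance was larger, with 175 called genes (1.23%) higher and 606 (4.27%) lower. The median over all genes tested was 0.0037 on the log2 scale, a value that the scaling itself sets near 0. The called genes that rose had a median log2 difference of 0.76, and those that fell one of -0.99. The direction was the same in all 3 mice for 1754 of the 1755 called genes, against 51.7% of all genes tested. In 1611 of them the 3 Lgr5high and 3 Lgr5med libraries did not overlap, against 30.2% of all genes tested. Both counts come from the libraries that made the calls, so they largely follow from the calls and are no separate support. The count was 1120 without the Lgr5high library of mouse 1, 1051 without that of mouse 3, 970 without the Lgr5med library of mouse 2 and 877 without that of mouse 3. It was 1093 without mouse 2 and 577 without mouse 3. Fitted on the 6 libraries alone with the mouse as a block, 1272 genes were higher and 1658 lower, so that 43.4% of the calls were higher, against 30.5% in the main count.

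**Figure D1:**
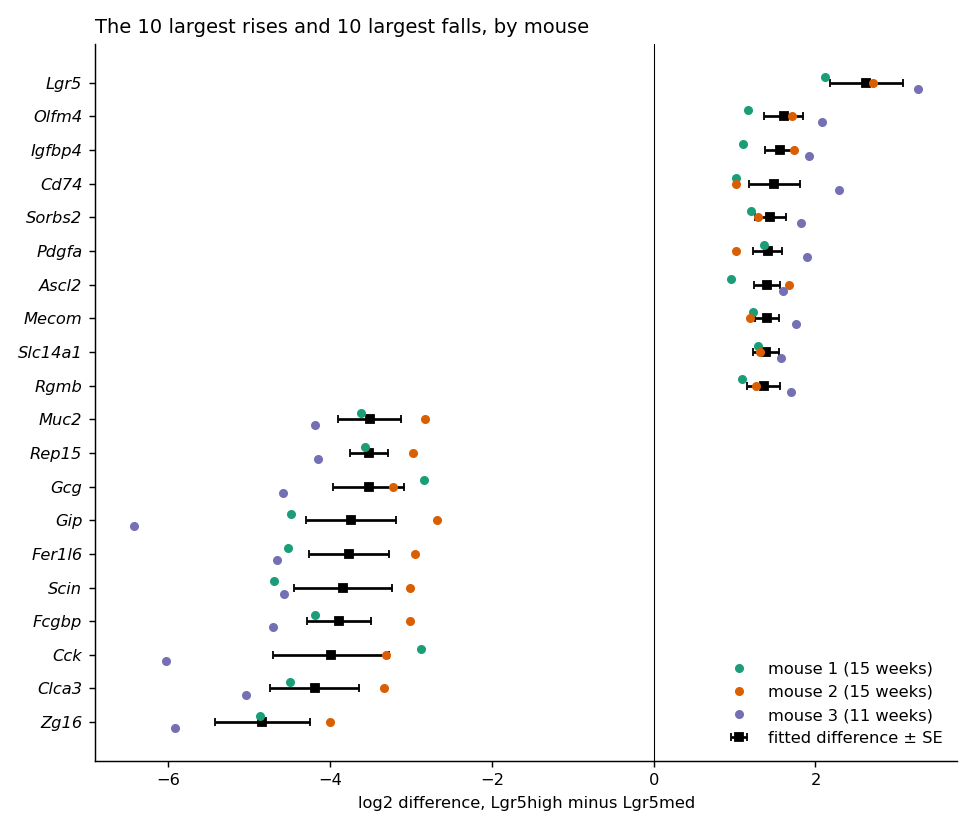
Log2 differences (Lgr5high minus Lgr5med, x axis) of the 10 largest rises and 10 largest falls among the more abundant called genes (y axis); coloured points are the 3 mice and the black square with its bar is the fitted difference ± SE. The genes were drawn from calls with the same direction in all 3 mice. By that choice, every point lies on the side of its gene's fitted difference. Mouse 3 lies farthest from 0 for Lgr5 (3.27) and Zg16 (-5.91).

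Of 30 crypt base columnar stem cell markers, with Lgr5 counted among them, 28 rose and none fell, with a median log2 difference of 1.07. The markers took 1.64%, 1.21% and 1.54% of the counts outside mitochondrial ribosomal RNA in Lgr5high libraries and 0.837%, 0.515% and 0.538% in Lgr5med libraries. Igfbp4, an IGF-binding protein, was at 71.4, 58.3 and 77.8 CPM in Lgr5high, against 33.3, 17.4 and 20.5 CPM in Lgr5med cells (log2 difference 1.56, SE 0.187, adjusted p = 1.76e-05). Ascl2, a bHLH factor that maintains crypt stem cells (chr7:142966829-142969264), was at 64.3, 49.3 and 61.7 against 33.0, 15.4 and 20.2 CPM in the same order (1.40, SE 0.160, adjusted p = 6.81e-06). Neither gene overlapped between the gates. Rgmb, a co-receptor for bone morphogenetic proteins, rose by 1.36 and Pdgfa, a ligand of the PDGF receptor, by 1.41. Slc12a2, a sodium-potassium-chloride cotransporter, rose by 1.21 and Smoc2, a secreted matrix-associated protein, by 0.99. Outside that list, the 10 largest rises of genes averaging at least 4 on the log2 CPM scale included Sorbs2, an actin-associated adaptor (1.44, SE 0.192, adjusted p = 7.35e-05), Mecom, a zinc finger transcription factor (1.40) and Slc14a1, a urea transporter (1.39). Mecom was at 72.9, 46.9 and 74.7 CPM in Lgr5high, against 30.9, 20.6 and 22.0 CPM in Lgr5med cells. The markers that did not pass were Mex3a (0.71, adjusted p = 0.0645) and Sh3bgrl2 (-0.42, adjusted p = 0.101). The lowest count of rises among the alternatives was 18 of the 30, without mouse 3.

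**Figure D2:**
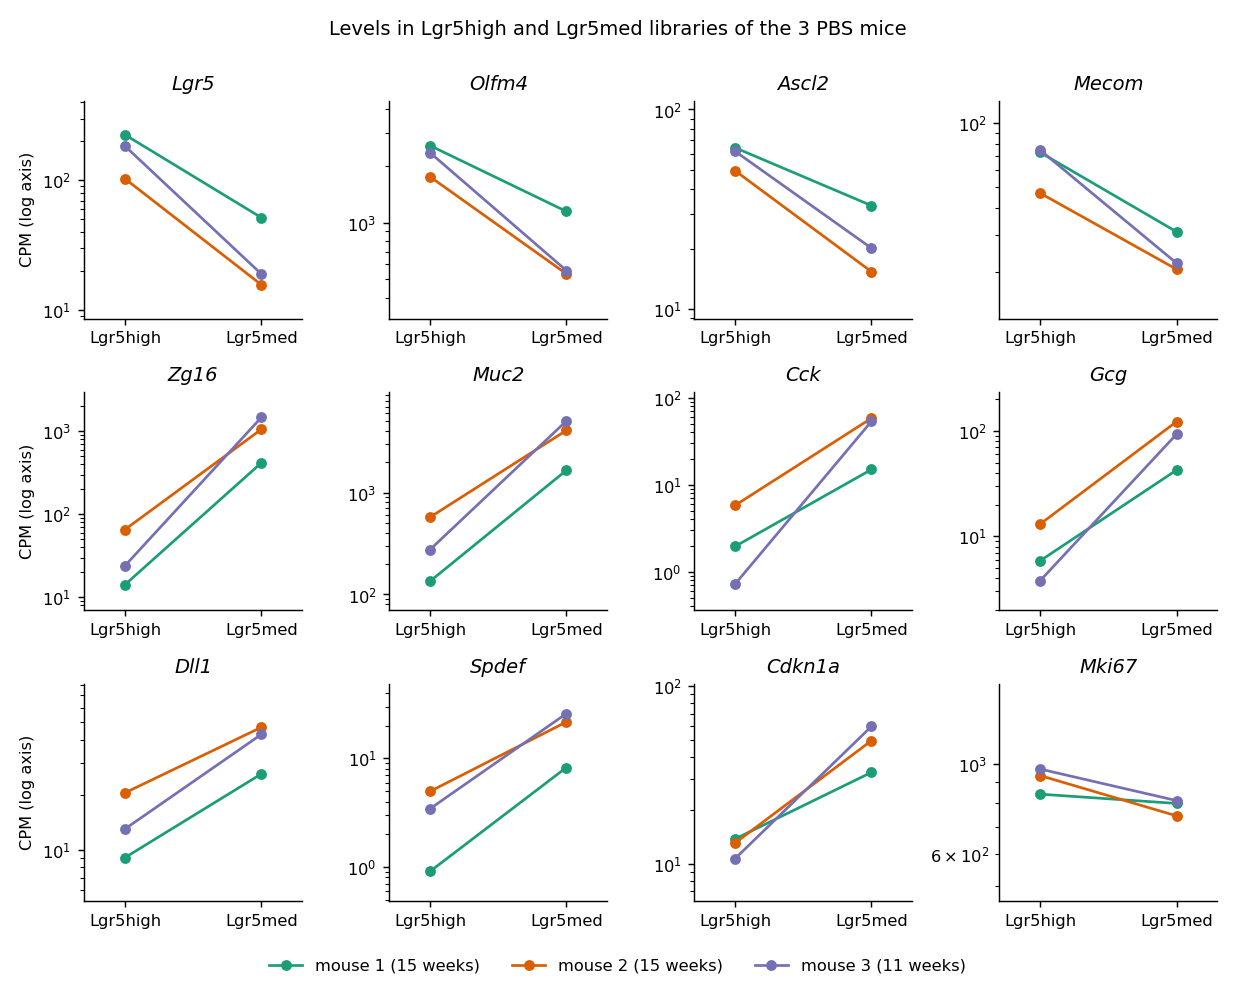
CPM on log axes in the Lgr5high (left) and Lgr5med (right) libraries of the 3 PBS mice, 1 line per mouse, for 12 genes. Lgr5, Olfm4, Ascl2 and Mecom slope down to Lgr5med in each mouse, Zg16, Muc2, Cck, Gcg, Dll1, Spdef and Cdkn1a slope up, and Mki67 changes little.

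Wnt target and feedback genes rose for 13 of 22 tested and fell for 1, with a median of 1.00. The list shares 6 genes with the stem cell list, and Lgr5, which the sort chose, is among these and among the 13. Of its 14 calls, 9 were left without the Lgr5high library of mouse 1 or 3 and without the Lgr5med library of mouse 2 or 3, each left out alone. Without mouse 3, 7 members were called, all higher. Tnfrsf19, a TNF-receptor family member and Wnt target counted in the stem cell list, was at 45.9, 19.4 and 38.3 CPM in Lgr5high, against 10.3, 4.19 and 4.17 CPM in Lgr5med cells (log2 difference 2.48, SE 0.313, adjusted p = 0.000137). Sp5, a zinc finger factor induced by Wnt, was at 8.06, 6.11 and 9.91 against 2.49, 1.95 and 2.43 CPM (1.81, SE 0.298, adjusted p = 0.000298). Levels of both were higher in every Lgr5high library than in any Lgr5med library. Axin2, a feedback inhibitor of the pathway, rose by 1.06 (SE 0.133, adjusted p = 1.88e-05), Cd44, an adhesion receptor, by 1.19 and the Wnt receptor Fzd7 by 0.93. Lef1, a DNA-binding partner of β-catenin, stood at 2.73, 1.52 and 1.54 CPM in Lgr5high, against 0.634, 0.244 and 0.187 CPM in Lgr5med cells (2.51, adjusted p = 0.0198). Its call ended without the Lgr5high library of mouse 1 (0.101) or 3 (0.113) and without the Lgr5med library of mouse 2 (0.128) or 3 (0.102). The gene that fell was Fzd5, another Wnt receptor (-0.51, adjusted p = 0.0233), whose call ended without the Lgr5high library of mouse 1 (0.0828) or 3 (0.188) or the Lgr5med library of mouse 1 (0.0857) or 3 (0.191). The proliferation factors Myc (0.47, adjusted p = 0.0987) and Ccnd1 (0.11) did not pass, nor did the receptors Lrp5 (0.10) and Lrp6 (0.10).

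Tnfrsf19 and Sp5 were the members of the stem cell and Wnt lists whose promoters held the TCF/LEF motif ATCAAAG on either strand, and their upstream sequences are shown for that reason. They were 1 of 22 promoters (4.55%) of the stem cell list and 1 of 13 (7.69%) of the Wnt list. The motif was found in 20 of 414 promoters (4.83%) of genes called higher, 25 of 951 (2.63%) of genes called lower and 324 of 10442 (3.1%) of all tested genes with a RefSeq promoter (250 bases before to 50 after the start, GRCm38.p6). The 250 bases before the start are printed 5′ to 3′ on the gene's strand with the motif in capitals. It begins 202 bases before a RefSeq start of Tnfrsf19 (chr14:61037988-61038237, minus strand) and, on the opposite strand, 104 bases before that of Sp5 (chr2:70474673-70474922, plus strand). The printed Tnfrsf19 bases lie inside the annotated gene (chr14:60963875-61046490), so this is not its outermost start.
Tnfrsf19: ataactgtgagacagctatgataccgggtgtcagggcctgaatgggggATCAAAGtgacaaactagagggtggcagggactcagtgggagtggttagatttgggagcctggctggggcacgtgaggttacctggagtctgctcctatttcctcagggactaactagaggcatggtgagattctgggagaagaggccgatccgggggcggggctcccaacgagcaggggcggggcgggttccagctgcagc
Sp5: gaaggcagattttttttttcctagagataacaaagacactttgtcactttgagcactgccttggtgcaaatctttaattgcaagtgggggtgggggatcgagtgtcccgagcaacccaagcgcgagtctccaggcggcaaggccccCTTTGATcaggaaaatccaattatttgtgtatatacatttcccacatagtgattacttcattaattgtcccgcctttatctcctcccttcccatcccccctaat

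Among Eph receptors and ephrins, the contact signals that position cells along the crypt, 4 of 12 tested rose and 1 fell, with a median of 0.32. The calls made up 41.7% of the list, beside 12.4% of all genes tested. Of these 5 calls, 3 were left without the Lgr5high library of mouse 1 or the Lgr5med library of mouse 2 or 3. Efnb2, a transmembrane ephrin-B ligand (chr8:8617434-8661242), was at 6.15, 8.62 and 8.33 CPM in Lgr5high, against 27.5, 36.3 and 42.6 CPM in Lgr5med cells. It fell by 2.20 on the log2 scale (SE 0.177, adjusted p = 2.5e-07), with no overlap. Of the receptors, Ephb3 rose by 1.13 (SE 0.210, adjusted p = 0.00148), while Ephb2 had a log2 difference of 0.12 (SE 0.163, adjusted p = 0.71). Efna4, an ephrin-A ligand, rose by 0.96 (SE 0.162, adjusted p = 0.000393). Epha7 was called at 1.45 (adjusted p = 0.0396), a call that ended without each of the 6 libraries in turn (0.0705 to 0.27) and without the block (0.0704).

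Notch pathway genes did not move as a group: 2 of 23 tested rose, 3 fell, and the median was -0.13. These calls were 21.7% of the list, beside 12.4% of all genes tested. Without any 1 of the 6 libraries, 1 to 3 members were called. The receptor Notch1 was at 70.5, 61.3 and 65.6 CPM in Lgr5high, against 45.9, 32.8 and 30.0 CPM in Lgr5med cells (log2 difference 0.89, SE 0.141, adjusted p = 0.000214). Hes1, a repressor induced by Notch, was called at 0.42 (adjusted p = 0.0408) but not without the block (0.343), nor without any 1 of the 6 libraries (0.0834 to 0.252). Of the ligands, Dll1 and Dll4 fell, while Jag1 (-0.33) and Jag2 (0.04) did not pass. Dll1, which activates Notch in the neighbouring cell, was at 9.06, 20.5 and 13 CPM in Lgr5high, against 26.0, 46.8 and 42.8 CPM in Lgr5med cells (-1.46, SE 0.356, adjusted p = 0.029). Dll4 was at 1.59, 6.72 and 4.12 against 8.11, 14.9 and 12.7 CPM (-1.55, SE 0.421, adjusted p = 0.036). Every Lgr5high library was below every Lgr5med library for both ligands. The Dll1 call ended without the Lgr5high library of mouse 1 (0.118) or 3 (0.142) or the Lgr5med library of mouse 2 (0.124) or 3 (0.129). That of Dll4 ended without the Lgr5high library of mouse 1 (0.0669) or 3 (0.157) or the Lgr5med library of mouse 1 (0.0664), 2 (0.173) or 3 (0.139).

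Regulators of secretory commitment fell for 11 of 20 tested and rose for none, with a median of -0.88. Without the Lgr5high library of mouse 3, 7 were called, and on the 6 libraries with no block 4 were. Atoh1, a factor required for goblet, enteroendocrine and Paneth cells (chr6:64729125-64731245), was at 3.64, 13.5 and 9.69 CPM in Lgr5high, against 23.3, 39.4 and 46.2 CPM in Lgr5med cells. It fell by 2.07 on the log2 scale (SE 0.271, adjusted p = 0.000266), with no overlap between the gates. Spdef, an ETS factor of goblet cell maturation, was at 0.911, 4.97 and 3.44 against 8.25, 21.7 and 25.9 CPM (-2.58, SE 0.287, adjusted p = 1.88e-05). Cbfa2t3, a transcriptional corepressor, fell by 2.53 (SE 0.243, adjusted p = 3.67e-06) and Gfi1, a zinc finger repressor downstream of ATOH1, by 2.49 (SE 0.404, adjusted p = 0.000869). Neurog3, which starts the enteroendocrine programme, fell by 1.87 (SE 0.306, adjusted p = 0.000277). Creb3l1, a membrane-bound transcription factor of secretory cells, fell by 2.35 and Xbp1, the factor activated by IRE1 splicing, by 0.98. The call of Klf4, a goblet cell factor, at -2.23 (adjusted p = 0.00654) ended without the Lgr5high library of mouse 3 (0.0502). Sox4 (0.55, adjusted p = 0.0524), Elf3 (-0.09) and the FOXA genes Foxa1 (-0.21) and Foxa2 (-0.25) did not pass. In sorted bulk RNA, fewer cells of a type and less RNA per cell cannot be told apart, here and in the lineage markers that follow.

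Goblet markers included Zg16, the largest fall of the named abundant genes, with 22 of 24 tested lower, 1 higher and a median of -2.60. On the 6 libraries with no block, 8 of these 23 calls were left. They took 0.196%, 0.628% and 0.333% of the counts outside mitochondrial ribosomal RNA in Lgr5high libraries and 1.5%, 3.66% and 4.09% in Lgr5med libraries. Muc2, the main secreted mucin of the intestine (chr7:141690340-141754693), was at 135, 574 and 276 CPM in Lgr5high, against 1656, 4081 and 5050 CPM in Lgr5med cells. It fell by 3.51 on the log2 scale (SE 0.391, adjusted p = 0.000432), which is 11.4-fold. Fcgbp, a mucus protein that binds IgG Fc (chr7:28071236-28120862), was at 125, 674 and 235 against 2266, 5431 and 6142 CPM (-3.89, SE 0.395, adjusted p = 0.00023). The Lgr5high library of mouse 2 was the highest of its gate for Muc2, Fcgbp and Zg16, and still below each Lgr5med library. Tff3, a trefoil peptide, fell by 3.28 and Agr2, the disulfide isomerase needed for mucin folding, by 3.24. The 10 largest falls also held Rep15, a RAB15 effector (-3.52, SE 0.236, adjusted p = 1.56e-07), Fer1l6, of the ferlin family (-3.77), and Scin, an actin-severing protein (-3.84, adjusted p = 0.00852). The Scin call ended without the Lgr5high library of mouse 3 (0.0534). The symbols Clca3 (-4.19, adjusted p = 0.00306) and Clca1 (0.80, adjusted p = 0.0109), the 1 goblet entry that was higher, cannot be tied to 1 gene each in the annotation, so their opposite directions are given as deposited. Without the Lgr5high or the Lgr5med library of mouse 3 the adjusted p of Clca1 was 0.0771 and 0.138.

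The palindrome CAGCTG, the kind of E-box bound by ATOH1-type factors, was held by the promoters of both Muc2 and Dll1, which are printed as a secreted product and a ligand of the secretory branch. It is a common motif: 90 of 414 promoters (21.7%) of genes called higher held it, 197 of 951 (20.7%) of genes called lower and 1850 of 10442 (17.7%) of all. Capitals mark the motif, which begins 112 bases before the start of Muc2 (chr7:141690090-141690339, plus strand) and 132 bases before that of Dll1 (chr17:15376933-15377182, minus strand).
Muc2: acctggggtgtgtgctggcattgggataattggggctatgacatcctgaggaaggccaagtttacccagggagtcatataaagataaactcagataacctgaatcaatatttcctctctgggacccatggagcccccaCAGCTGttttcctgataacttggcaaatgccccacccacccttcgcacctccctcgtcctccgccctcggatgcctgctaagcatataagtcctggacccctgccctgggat
Dll1: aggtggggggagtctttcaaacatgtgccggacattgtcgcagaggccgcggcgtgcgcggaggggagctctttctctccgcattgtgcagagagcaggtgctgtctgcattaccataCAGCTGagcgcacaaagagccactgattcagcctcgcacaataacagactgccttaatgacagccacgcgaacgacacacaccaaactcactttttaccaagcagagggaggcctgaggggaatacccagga

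Enteroendocrine genes were called lower on both levels, hormones and regulators, although the summed counts of the regulators did not fall. Of 22 hormone and granin genes tested, 18 fell and none rose, with a median of -2.87. Without the block 10 were called, and without the Lgr5med library of mouse 3, 11. Gcg, the precursor of GLP-1 (chr2:62474530-62483650), was at 5.87, 13.1 and 3.80 CPM in Lgr5high, against 42.6, 123 and 93.4 CPM in Lgr5med cells (log2 difference -3.52, SE 0.440, adjusted p = 0.00193). Ghrl, the ghrelin precursor, was at 0.228, 0.342 and 0.0905 against 1.99, 7.52 and 7.02 CPM (-4.57, SE 0.395, adjusted p = 3.02e-07). Neither overlapped. Cck, the cholecystokinin precursor (chr9:121489824-121495694), was at 1.96, 5.81 and 0.724 CPM in Lgr5high, against 15.0, 58.3 and 53.7 CPM in Lgr5med cells (-3.99, SE 0.714, adjusted p = 0.014). Its adjusted p was 0.0668 without the block, 0.0549 without the Lgr5high library of mouse 2 and 0.126 without mouse 1. Gip, another incretin, was at 0.182, 4.25 and 0.0905 against 6.16, 27.8 and 16.1 CPM (-3.74, adjusted p = 0.00331), with 0.111 without the block and 0.0883 without mouse 1. Mouse 2 had the highest Lgr5high values of Gcg, Ghrl, Cck and Gip.

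Of 21 enteroendocrine transcription factor genes tested, 15 fell and none rose, with a median of -2.60. Without mouse 3, 9 were called, and on the 6 libraries with the block 12 were lower and 3 higher. Neurod1, which acts after Neurog3, was at 0.0911, 0.797 and 0.317 CPM in Lgr5high, against 2.67, 3.90 and 4.59 CPM in Lgr5med cells (log2 difference -3.28, SE 0.433, adjusted p = 3.22e-05). Myt1, a zinc finger factor, fell by 3.91 (SE 0.536, adjusted p = 4.51e-05) and Etv1, an ETS factor, by 4.09 (SE 0.893, adjusted p = 0.00276). The Etv1 call ended without mouse 3 (0.0712). Factors used outside this lineage too, such as Mlxipl (0.27), Rfx3 (0.40) and Foxa2 (-0.25), did not pass.

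Paneth markers moved in both directions, with 2 of 19 tested higher, 2 lower and a median of 0.43, which ran from -0.18 to 0.67 over the alternatives. The calls made up 21.1% of the list, beside 12.4% of all genes tested. With no filter on low counts 9 were higher and 3 lower, and by DESeq2 6 were higher and 3 lower. Without the block 0 were higher and 1 lower. Lyz1, the Paneth cell lysozyme, was at 2003, 1896 and 992 CPM in Lgr5high, against 629, 1836 and 799 CPM in Lgr5med cells. The gates overlapped, and the log2 difference of 0.83 had an SE of 0.622 (adjusted p = 0.496). Lyz1 was called under 1 of the 17 alternatives. Mptx1, a pentraxin, fell by 3.78 (SE 0.335, adjusted p = 4.27e-07), and Mmp7, the protease that activates pro-defensins, was called at -0.57 (adjusted p = 0.0314). The alpha-defensins Defa3 (1.53, adjusted p = 0.0122) and Defa24 (0.81, adjusted p = 0.0316) were called higher. Without the block the adjusted p was 0.121 for Defa3, 0.562 for Defa24 and 0.495 for Mmp7. Leaving out single libraries ended the Defa3 call for Lgr5high mouse 1 (0.125) and Lgr5med mice 1 (0.0518) and 3 (0.097). The Defa24 call ended for Lgr5high mice 1 (0.162) and 3 (0.0857) and Lgr5med mice 1 (0.12) and 3 (0.158). The Mmp7 call ended for Lgr5high mice 2 (0.154) and 3 (0.196) and Lgr5med mice 2 (0.182) and 3 (0.206). Alpha-defensin genes are near-identical copies, so how reads were split among them is uncertain. Paneth markers took 0.971%, 1.03% and 0.640% of the counts outside mitochondrial ribosomal RNA in Lgr5high and 0.363%, 0.871% and 0.457% in Lgr5med libraries, although both gates were CD24low. Their part in the other differences was not tested.

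Tuft cell genes were low in both gates, with the exception of Krt18. Of 15 tested, 1 fell (6.67%, beside 8.59% of all genes tested), and the median was -0.75. The gene was Krt18, a keratin shared with other epithelial cells (-0.47, adjusted p = 0.0168). Dclk1, a kinase used as a tuft marker, was at 0, 1.40 and 0.679 CPM in Lgr5high, against 1.22, 1.54 and 0.936 CPM in Lgr5med cells, and Pou2f3, the lineage factor, differed by -1.06 (adjusted p = 0.056). The Krt18 call ended without the Lgr5high library of mouse 2 (0.122) or 3 (0.0669) and the Lgr5med library of mouse 2 (0.0949) or 3 (0.16).

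Of 38 enterocyte markers, 16 fell and none rose, with a median of -1.06. The falls were 42.1% of the list, beside 8.59% of all genes tested. The count turned on single libraries: it was 7, 29 and 10 without the Lgr5high libraries of mice 1, 2 and 3, and 9 and 8 without the Lgr5med libraries of mice 2 and 3. Alpi, the brush border alkaline phosphatase, was at 8.88, 15.8 and 8.60 CPM in Lgr5high, against 51.9, 50.7 and 82.8 CPM in Lgr5med cells (log2 difference -2.43, SE 0.411, adjusted p = 0.00717). Without mouse 3 its adjusted p was 0.06. Sis, sucrase-isomaltase, was at 33.5, 60.8 and 32.5 against 107, 121 and 206 CPM (-1.72, SE 0.296, adjusted p = 0.00285), with 0.0781 without mouse 1. Mogat2, an enzyme of dietary fat resynthesis, fell by 1.94 (SE 0.279, adjusted p = 0.000287). The gates did not overlap for any of these genes. The chylomicron proteins Apob (0.02), Apoa1 (-1.18, adjusted p = 0.23) and Apoa4 (-1.13, adjusted p = 0.383) did not pass, nor did the glucose transporter Slc5a1 (0.23). The keratin Krt20 (-2.50, adjusted p = 0.0235) lost its call without the Lgr5high library of mouse 1 (0.0705) or 3 (0.0882) or the Lgr5med library of mouse 2 (0.0817) or 3 (0.0849). Without mouse 3, 5 of the 38 were called.

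**Figure D3:**
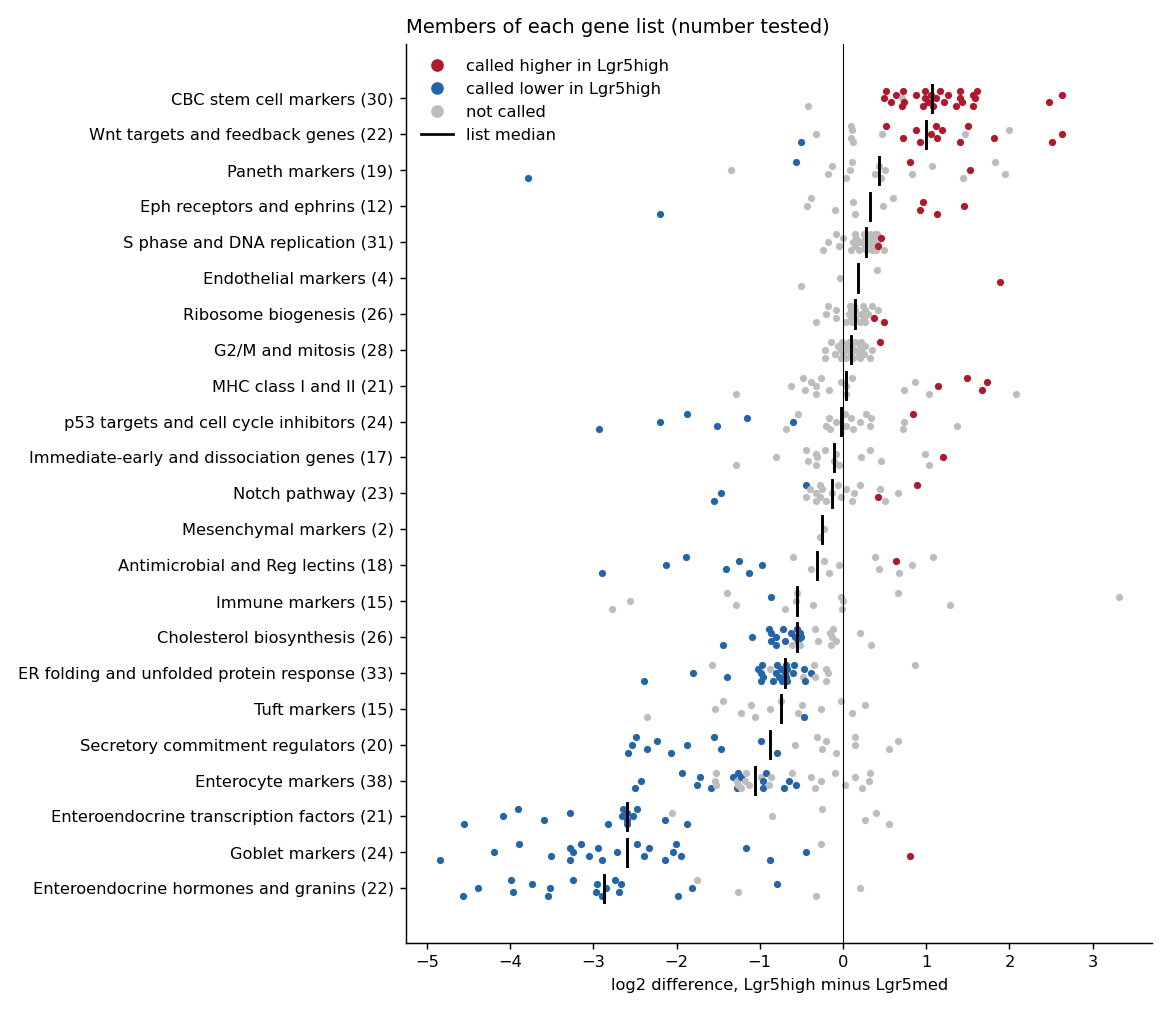
Log2 differences (Lgr5high minus Lgr5med, x axis) of the tested members of each gene list (y axis, number tested in brackets); red points were called higher in Lgr5high, blue points lower and grey points neither, and the black tick is the list median. Stem cell and Wnt lists lie right of 0 with medians of 1.07 and 1.00, and goblet and enteroendocrine hormone lists lie left of 0 with medians of -2.60 and -2.87.

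Genes of protein folding in the endoplasmic reticulum were lower in Lgr5high cells as a broad and shallow set. Of 33 tested, 24 fell and none rose, with a median of -0.70. Without the block 15 were called, and without mouse 3, 12. They took 0.466%, 0.634% and 0.609% of the counts outside mitochondrial ribosomal RNA in Lgr5high and 0.677%, 0.947% and 1.04% in Lgr5med libraries. The widest fall was that of Ern2, the IRE1 homologue of mucous epithelia (-2.39, SE 0.251, adjusted p = 5.49e-05), followed by the disulfide isomerase Pdia5 (-1.80, SE 0.174, adjusted p = 1.1e-06). Hspa5, the chaperone BiP (chr2:34771970-34777547), was at 189, 304 and 307 CPM in Lgr5high, against 314, 567 and 738 CPM in Lgr5med cells (-0.96, SE 0.162, adjusted p = 0.000358). Pdia6, another isomerase, was at 44.8, 65.5 and 59.6 against 80.2, 126 and 131 CPM (-0.97, SE 0.149, adjusted p = 0.00016). Values of mouse 1 were the lowest of both gates for each, and the step was seen within every mouse. Calr, the lectin chaperone calreticulin, fell by 0.73 (SE 0.149, adjusted p = 0.00208). Creld2, a disulfide isomerase induced by endoplasmic reticulum stress, was called at -0.75 (adjusted p = 0.0128). Without the block the adjusted p of Hspa5 was 0.17 and that of Creld2 0.376, and Creld2 also lost its call without the Lgr5high library of mouse 3 (0.136) or the Lgr5med library of mouse 2 (0.0665) or 3 (0.142). The stress effectors Atf4 (-0.34, adjusted p = 0.0925), Ddit3 (-0.48, adjusted p = 0.323) and Herpud1 (-0.21, adjusted p = 0.494) did not pass. Goblet markers fell in the same libraries, and their part in this list's fall was not tested.

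The endoplasmic reticulum stress element, here CCAAT, then 9 bases of any kind, then CCACG on either strand, was in 17 of 10442 promoters of tested genes (0.163%). Of the 26 genes of the folding list with a promoter, 8 held it (30.8%): Hspa5, Hsp90b1, Pdia6, Dnajc3, Calr and Creld2, which were called lower, and Canx and Derl3, which were not called. It was in 9 of 951 promoters (0.946%) of genes called lower and in 0 of 414 of genes called higher. Outside the list, the called genes that held it were Ero1lb, an endoplasmic reticulum oxidase (-1.03, adjusted p = 0.0105), Syvn1, a ubiquitin ligase of endoplasmic reticulum degradation (-0.67, adjusted p = 0.000634), and Spats2l (-2.45, adjusted p = 7.29e-06). The calls of Syvn1 (0.224), Dnajc3 (0.115) and Hsp90b1 (0.0738) ended without the block. That of Hsp90b1 also ended without the Lgr5high (0.066) or the Lgr5med (0.0526) library of mouse 3. That of Ero1lb ended without the Lgr5high library of mouse 1 (0.0619) or 3 (0.0828) or the Lgr5med library of mouse 3 (0.131). A match of letters is a description and does not show binding. Promoters of 4 of the folding genes are printed to show the element, with both ends of it in capitals. It begins 65 bases before the start of Hspa5 (chr2:34771840-34772089, plus strand) and 98 bases before that of Pdia6 (chr12:17266339-17266588, plus strand). On the opposite strand, it begins 162 bases before the start of Calr (chr8:84846932-84847181, minus strand) and 126 bases before that of Creld2 (chr15:88819396-88819645, plus strand).
Hspa5: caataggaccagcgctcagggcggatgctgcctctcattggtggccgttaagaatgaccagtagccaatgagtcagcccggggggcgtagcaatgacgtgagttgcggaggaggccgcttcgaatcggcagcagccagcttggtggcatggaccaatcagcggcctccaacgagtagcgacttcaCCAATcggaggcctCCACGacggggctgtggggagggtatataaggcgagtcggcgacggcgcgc
Pdia6: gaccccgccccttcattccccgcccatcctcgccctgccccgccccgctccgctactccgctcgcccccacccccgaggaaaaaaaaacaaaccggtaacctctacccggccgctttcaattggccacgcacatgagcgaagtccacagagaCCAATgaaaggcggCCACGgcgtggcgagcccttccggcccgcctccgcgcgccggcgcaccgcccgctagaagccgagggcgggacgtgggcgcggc
Calr: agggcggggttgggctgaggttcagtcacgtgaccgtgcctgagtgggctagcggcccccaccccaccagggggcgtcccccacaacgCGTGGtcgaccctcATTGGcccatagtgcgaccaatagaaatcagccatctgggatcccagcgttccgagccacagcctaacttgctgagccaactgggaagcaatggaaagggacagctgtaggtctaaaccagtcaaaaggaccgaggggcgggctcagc
Creld2: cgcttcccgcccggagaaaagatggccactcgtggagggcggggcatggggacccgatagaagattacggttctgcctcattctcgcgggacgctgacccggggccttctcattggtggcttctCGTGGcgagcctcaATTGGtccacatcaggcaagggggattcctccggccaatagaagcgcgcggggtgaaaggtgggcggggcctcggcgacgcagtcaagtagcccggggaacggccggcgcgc

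Cholesterol biosynthesis genes were lower too, for 15 of 26 tested, with none higher and a median of -0.55. Without the Lgr5high library of mouse 1, 9 were called, and without mouse 3, 8. Msmo1, a sterol oxidase, was at 2.82, 3.34 and 3.03 CPM in Lgr5high, against 7.11, 10.3 and 7.63 CPM in Lgr5med cells (log2 difference -1.44, SE 0.181, adjusted p = 1.91e-05). Cyp51, the lanosterol demethylase, was at 23.5, 34.1 and 28.6 against 41.9, 64.8 and 53.2 CPM (-0.89, SE 0.125, adjusted p = 6.99e-05). Hmgcs1, the synthase at the entry of the pathway, fell by 0.86 (SE 0.136, adjusted p = 0.000215). The gates did not overlap for Msmo1 or Cyp51.

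Few proliferation genes passed the test, although most S phase genes had positive log2 differences. Mki67, a marker of cycling cells, was at 841, 934 and 969 CPM in Lgr5high, against 798, 744 and 811 CPM in Lgr5med cells, with a log2 difference of 0.22 (SE 0.181, adjusted p = 0.52). Of 28 genes of G2/M and mitosis, 1 rose and none fell, with a median of 0.10. It was Top2a, the topoisomerase of replicating chromatin (0.44, SE 0.144, adjusted p = 0.0498), whose adjusted p was 0.0891 without the block and 0.0627 to 0.251 without any 1 of the 6 libraries. G2/M genes took 0.658%, 0.736% and 0.664% of the counts outside mitochondrial ribosomal RNA in Lgr5high and 0.591%, 0.594% and 0.558% in Lgr5med libraries. Of 31 genes of S phase, 2 rose and none fell, with a median of 0.28, and 27 had positive log2 differences. They took 0.262%, 0.280% and 0.308% in Lgr5high and 0.239%, 0.222% and 0.218% in Lgr5med libraries, so that neither list overlapped between the gates. On the 6 libraries with the block, 9 S phase and 3 G2/M genes were called, all higher. Among them was the helicase subunit Mcm6 (0.46, adjusted p = 0.0347), which did not pass without the block (0.0559), and no member of the list did. Ribosome biogenesis genes had a median of 0.14, with Npm1 (0.49, adjusted p = 0.0363) and Nop58 (0.37, adjusted p = 0.0462) higher of 26 tested and none lower, and neither passed without the block (0.105 and 0.0663). The Mcm6 call held only without the Lgr5high library of mouse 1 (0.0608 to 0.302 without the others). That of Npm1 held only without the libraries of mouse 1 (0.139 to 0.324 without the others), and that of Nop58 only without the Lgr5med library of mouse 1 (0.0657 to 0.34 without the others). All these calls were higher, and they were 3.57% of the G2/M, 6.45% of the S phase and 7.69% of the ribosome biogenesis genes, beside 3.77% of all genes tested.

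Of the cell cycle inhibitors, Cdkn1a and Cdkn2b were called lower in Lgr5high cells, also under all 17 alternatives. Cdkn1a, which encodes p21 (chr17:29090976-29100727), was at 13.8, 13.1 and 10.7 CPM in Lgr5high, against 32.7, 49.3 and 59.3 CPM in Lgr5med cells (log2 difference -1.88, SE 0.247, adjusted p = 0.000289). Cdkn2b, which encodes p15, was at 0.501, 1.10 and 0.543 against 4.39, 5.81 and 6.60 CPM (-2.93, SE 0.295, adjusted p = 3.83e-06). The gates did not overlap for either. Cdkn1b, which encodes p27, had a log2 difference of 0.28 (adjusted p = 0.232). Of 24 p53 targets and cell cycle inhibitors, 6 fell, 1 rose and the median was -0.03. The calls made up 29.2% of the list, beside 12.4% of all genes tested. Without the Lgr5high or the Lgr5med library of mouse 3, 4 and 3 of these 7 calls were left. The p53 targets Mdm2 (-0.08), Ccng1 (0.03) and Bax (0.12) did not pass. The 1 rise was Trp53inp1 (0.84, adjusted p = 0.0132), with 0.0911 without the block, 0.165 without the Lgr5high library of mouse 1 and 0.127 without the Lgr5med library of mouse 3. Cdkn1c, which encodes p57, was called at -2.20 (adjusted p = 0.0132), with 0.0944 without the Lgr5high library of mouse 3, and 0.0715 and 0.157 without the Lgr5med libraries of mice 2 and 3.

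Genes of antimicrobial defence fell for 7 of 18 tested and rose for 1, with a median of -0.31. The calls made up 44.4% of the list, beside 12.4% of all genes tested. Reg1, a Reg family lectin, was at 14.5, 16.1 and 7.56 CPM in Lgr5high, against 57.0, 40.7 and 70.5 CPM in Lgr5med cells (log2 difference -2.13, SE 0.343, adjusted p = 0.00373), with an adjusted p of 0.0793 without mouse 1. Reg3g, a lectin that kills Gram-positive bacteria, was at 47.1, 74.3 and 54.4 against 114, 126 and 184 CPM (-1.25, SE 0.197, adjusted p = 0.000333). Reg genes resemble each other, so some reads may be shared between them. Lypd8, which keeps flagellated bacteria off the epithelium, fell by 0.97 (SE 0.143, adjusted p = 0.000107), and Duoxa2, the maturation factor of the oxidase DUOX2, by 1.89 (SE 0.410, adjusted p = 0.00329). Nlrp6, an innate sensor, was called higher (0.64, adjusted p = 0.0182). Its adjusted p was 0.0872 without the block, 0.171 without the Lgr5high library of mouse 3, and 0.104 and 0.154 without the Lgr5med libraries of mice 2 and 3.

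MHC class II molecules present antigen to CD4 T cells. Of 21 MHC genes tested, 4 rose and none fell, all 4 of class II, and the median over the list was 0.04. The 4 rises were 19% of the list, beside 3.77% of all genes tested. Cd74, the invariant chain of class II, was at 64.3, 82.4 and 43.3 CPM in Lgr5high, against 31.6, 40.7 and 8.75 CPM in Lgr5med cells (log2 difference 1.49, SE 0.316, adjusted p = 0.0141). H2-Ab1, a class II beta chain, was at 19.4, 31.5 and 12.8 against 6.93, 21.5 and 3.98 CPM (1.14, SE 0.253, adjusted p = 0.0081). H2-Aa (1.73, adjusted p = 0.0256) and H2-Eb1 (1.67, adjusted p = 0.00187) were the other called chains. The gates overlapped for H2-Ab1, and each mouse had the higher level in its Lgr5high library. Without the mouse as a block none of the 4 passed, with 0.475 for Cd74, 0.475 for H2-Ab1, 0.468 for H2-Aa and 0.225 for H2-Eb1. The Cd74 call also ended without the Lgr5med library of mouse 2 (0.0715) or 3 (0.0779). Without the Lgr5med library of mouse 2 or 3, 2 of the 4 calls were left. Without the Lgr5high library of mouse 2, 6 genes of the list were called higher and 2 lower, and on the 6 libraries with the block 5 were higher and 6 lower. The H2-Aa call ended without the Lgr5high library of mouse 1 (0.12) or 3 (0.0922) and the Lgr5med library of mouse 2 (0.162) or 3 (0.0544). The class I genes B2m (0.04), H2-K1 (-0.32) and H2-D1 (-0.48, adjusted p = 0.0522) did not pass.

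Immune cells also express class II, so immune markers are given beside it. Of 15 immune genes tested, 1 was called (6.67%, beside 12.4% of all genes tested), and it was lower. The gene was Itgam, an integrin of myeloid cells, at 10.0, 16.5 and 10.9 CPM in Lgr5high, against 22.1, 25.2 and 20.5 CPM in Lgr5med cells (-0.87, adjusted p = 0.000497). Ptprc, which encodes CD45, was at 0, 0.342 and 0.0905 CPM in Lgr5high, against 0.136, 0.325 and 0.187 CPM in Lgr5med cells, close to the floor. The list took 0.00332%, 0.00473% and 0.00337% of the counts outside mitochondrial ribosomal RNA in Lgr5high and 0.00594%, 0.00667% and 0.00539% in Lgr5med libraries. Itgam held most of that share, 4 of the 15 genes had positive log2 differences, and the part of immune cells in the class II difference was not tested. Of 4 endothelial genes tested, Esam, a junction protein, was called higher (1.89, adjusted p = 0.0173). Its adjusted p was 0.0509, 0.0823 and 0.102 without the Lgr5high libraries of mice 1, 2 and 3, and 0.163 and 0.081 without the Lgr5med libraries of mice 2 and 3. Pecam1, which encodes CD31, was at 0.592, 0.190 and 0.0453 CPM in Lgr5high, against 0.498, 0.0813 and 0.0468 CPM in Lgr5med cells. Endothelial markers took 0.00116%, 0.00114% and 0.00128% in Lgr5high and 0.000928%, 0.000515% and 0.000775% in Lgr5med libraries, and their part in the other differences was not tested. The endothelial gene Cdh5 had a total of 0 in all 24 libraries. Neither of 2 mesenchymal genes tested was called, and Tagln, the more abundant, had a log2 difference of -0.28. Of 17 immediate-early genes, which dissociation can induce, Jun alone was called (5.88% of the list, beside 12.4% of all genes tested). Jun was higher, at 68.1, 33.7 and 57.5 CPM in Lgr5high, against 30.2, 15.0 and 24 CPM in Lgr5med cells (1.20, SE 0.159, adjusted p = 3.5e-05). Fos (-0.05), Egr1 (-0.11) and Dusp1 (0.22) did not pass.

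The other gates of the same mice show where each level at this step lies along the sort, as a description. Lgr5 averaged 171 ± 62.0 CPM in Lgr5high cells, then 28.8 ± 19.9 in Lgr5med, 8.38 ± 2.41 in Lgr5low and 1.31 ± 0.291 CPM in Lgr5neg cells (SD, n = 3 each). Efnb2 ran the other way along all gates, at 7.70 ± 1.35, 35.5 ± 7.58, 65.0 ± 10.7 and 145 ± 30.6 CPM in the same order, and Cdkn1a likewise at 12.5 ± 1.59, 47.1 ± 13.5, 107 ± 37.3 and 385 ± 67.9 CPM. Alpi averaged 11.1 ± 4.07, 61.8 ± 18.2, 264 ± 98 and 1038 ± 309 CPM. Gcg and Dll1 were lowest at both ends of the sort, and Zg16 in Lgr5high cells. Gcg averaged 7.59 ± 4.88, 86.3 ± 40.6, 104 ± 68.1 and 15.6 ± 5.63 CPM, Dll1 14.2 ± 5.83, 38.5 ± 11.0, 37.0 ± 9.55 and 11.5 ± 4.92 CPM, and Zg16 34.6 ± 27.2, 973 ± 525, 2361 ± 1069 and 1028 ± 135 CPM. For Gcg and Dll1 the middle gates differed by less than 1 SD.

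**Figure D4:**
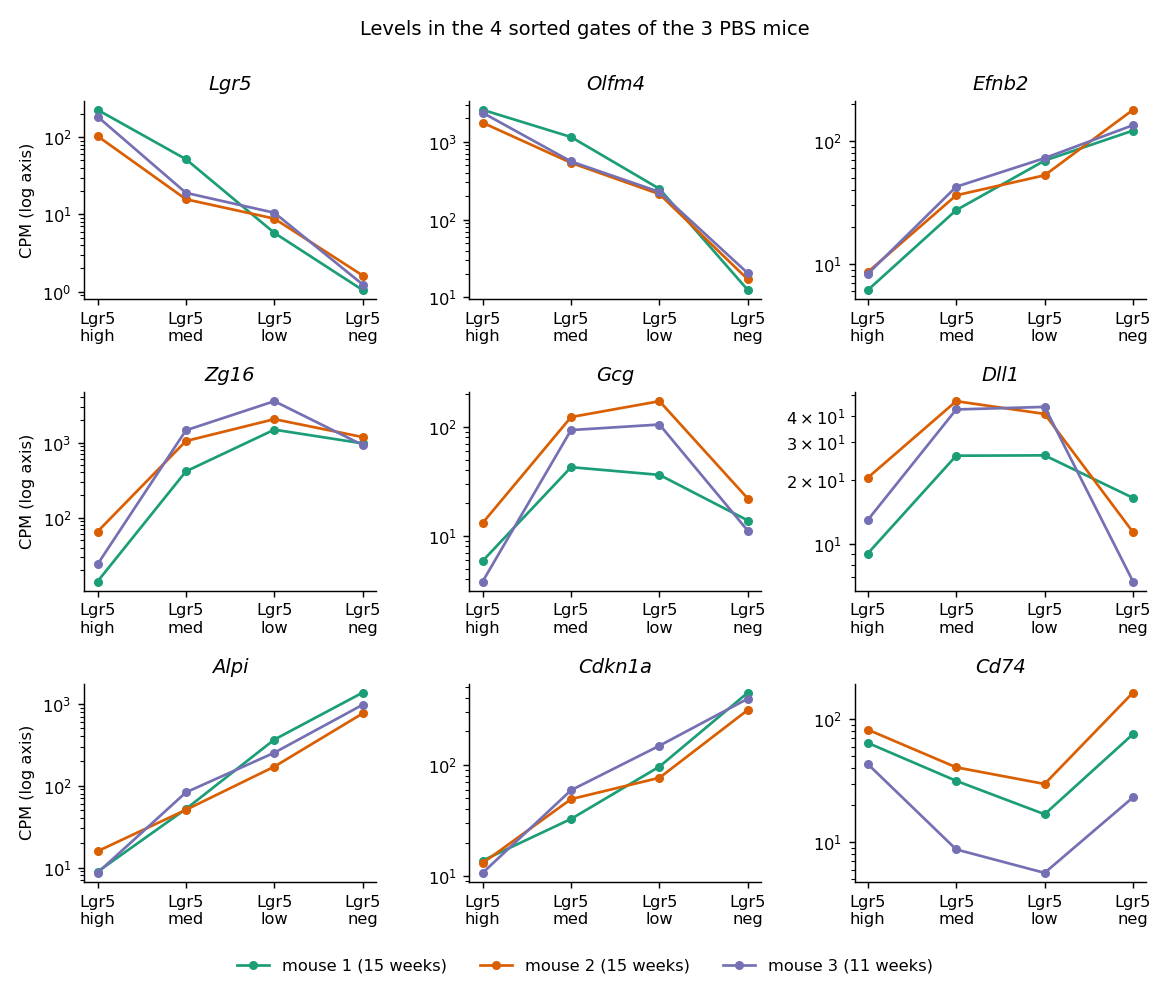
CPM on log axes in the 4 sorted gates (x axis, Lgr5high at the left) of the 3 PBS mice, 1 line per mouse, for 9 genes. Lgr5 and Olfm4 fall along the gates, Efnb2, Alpi and Cdkn1a rise, Gcg and Dll1 are lowest at both ends, and Cd74 is lowest in Lgr5low cells.

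The same step was measured in 3 NRG1-treated mice, which share no library with the PBS mice. NRG1 is a growth factor that binds the receptors ErbB3 and ErbB4. In those mice 913 of 14307 genes (6.38%) were called, 256 (1.79%) higher and 657 (4.59%) lower in Lgr5high cells. With median-of-ratios scaling the split was 349 higher and 562 lower. Without the mouse as a block 85 were higher and 360 lower, without NRG1 mouse 1 the numbers were 127 and 456, and without NRG1 mouse 3 they were 22 and 164. Of the 1755 genes called in PBS mice, 1736 were tested in NRG1 mice, and 1656 of these (95.4%) had the same direction, against 64.5% of the genes not called in PBS mice. Called in the same direction in both were 643 genes, which is 70.4% of those called in NRG1 mice and 36.6% of those called in PBS mice, and none was called in opposite directions. The genes that rose in PBS mice had a median log2 difference of 0.42 in NRG1 mice against 0.75 in PBS mice. Those that fell had one of -0.66 in NRG1 mice and -0.98 in PBS mice. The genes of these medians were chosen on the PBS values.

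**Figure D5:**
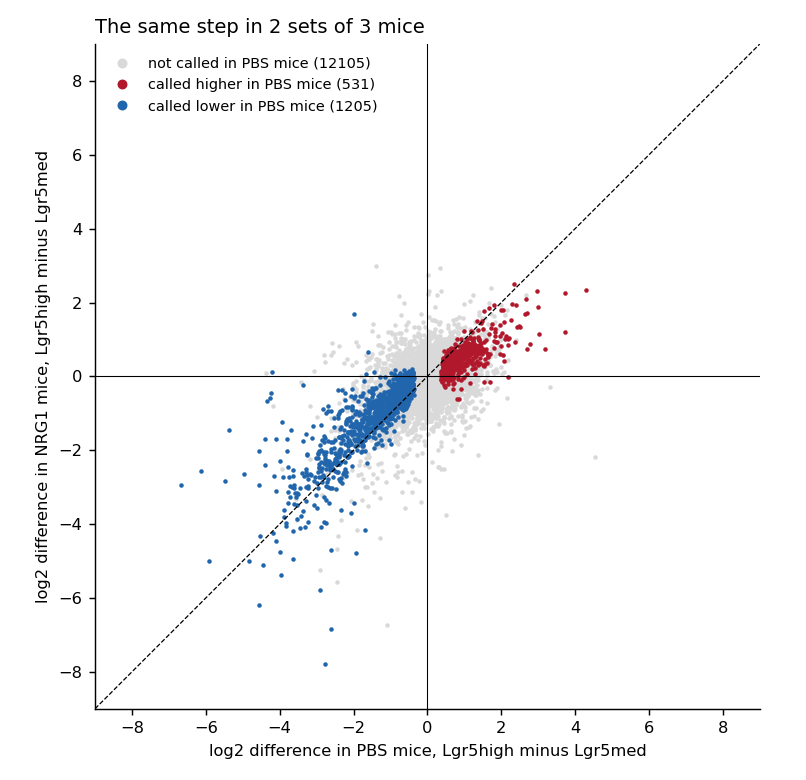
Log2 differences, Lgr5high minus Lgr5med, in NRG1 mice (y axis) against PBS mice (x axis) for 13841 genes tested in both; red and blue points were called higher and lower in PBS mice, and the dashed line marks equal differences. Most called points lie in the quadrants of equal sign, 492 of 531 risen and 1164 of 1205 fallen genes.

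The 2 steps were then compared in 1 model over all 24 libraries. No gene of 15045 passed the test of the difference, NRG1 step minus PBS step, by edgeR, with 875 (5.82%) at an unadjusted p under 0.05, and 1 passed by DESeq2, with 901 at an unadjusted p under 0.05. The smallest adjusted p was that of Smim24, a small membrane protein gene, which had a log2 difference of -0.32 in NRG1 mice and -1.43 in PBS mice (difference 1.14, SE 0.207, adjusted p = 0.12). Stem cell markers had medians of 0.63 in NRG1 mice and 1.07 in PBS mice, with 18 of 30 called higher in NRG1 mice. Olfm4 averaged 2049 ± 167 CPM in Lgr5high, against 1329 ± 174 CPM in Lgr5med cells of NRG1 mice (log2 difference 0.64, SE 0.150, adjusted p = 0.0137), and the difference of its steps did not pass (-0.94, SE 0.307, adjusted p = 0.598). Muc2 fell by 3.19 (SE 0.347, adjusted p = 0.000884) and Atoh1 by 1.83 (adjusted p = 3.66e-07) in NRG1 mice. Goblet markers were lower for 20 of 23 in NRG1 mice, with a median of -2.43. G2/M genes were called higher for 12 of 28 in NRG1 mice, with a median of 0.52, and for 1 of 28 in PBS mice, with a median of 0.10. None of these differences between the steps passed: that of Top2a was 0.28 (SE 0.221, adjusted p = 0.913) and that of Mki67 0.42 (SE 0.376, adjusted p = 0.926).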

How the data were processed

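Gene counts of RNA-seq libraries (15 ng RNA, 76 nt single-end, per the protocols in the labels) were deposited by the authors as raw, unnormalized counts per gene. STAR, featureCounts and GRCm38 are named in the submitters' processing notes; versions, annotation and strand setting are not given in the sources used here, so overlapping and antisense genes cannot be told apart. Mitochondrial ribosomal RNA stayed in the library sizes. No pair of libraries held identical counts.

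The main test was edgeR 4.0.16 (R 4.3.3; TMM, filterByExpr with a minimum count of 10 and a total of 15, robust quasi-likelihood, Benjamini-Hochberg over all genes tested, called under 0.05) on the 12 PBS libraries with the mouse as a block and population as a term, which leaves 6 residual degrees of freedom. Differences are log2, Lgr5high minus Lgr5med, and values per mouse used a prior count of 2. Libraries of 1 mouse were paired by their labels, and deviations from the group means correlated at 0.28, 0.21 and 0.13 within mice 1, 2 and 3. The NRG1 step was fitted on its own 12 libraries and the difference of the steps on all 24. Alternatives were no block, other scaling, no filter, DESeq2 1.42.0, mitochondrial ribosomal RNA removed, other sets of libraries, and each library or mouse left out. On simulated data with 13896 genes, the PBS test recovered 94 of 100 genes changed 2-fold and 100 of 100 changed 4-fold, with 8 false among 202 calls. For the difference of the steps it recovered 60 and 95 of 100 among 14759 genes. In both simulations the changed genes were drawn from those averaging over 4 CPM, and no mouse effect was simulated. Recovery of genes at lower levels, or with differences between mice, was not tested.

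The comparison, its genes and the 23 gene lists (534 distinct genes) were chosen with earlier results of these data known, so they carry counts and medians but no test of their own. Genes are named by these rules: the 10 largest rises and 10 largest falls among calls that shared 1 direction in all mice and averaged 4 or more on the log2 CPM scale (predicted genes left out), up to 3 called members of each list in each direction, and Lgr5, Olfm4, Zg16, Mki67, Cd24a, Epcam, Ptprc and Pecam1. Other genes were singled out after their values were seen. Some genes that these rules give are not reported here. Gene positions are from the GRCm38 annotation and promoters from RefSeq (GRCm38.p6), which matched 10442 of the 14203 tested genes.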

Additional observations from a re-analysis of the deposited data

How the results depend on the processing

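The count of 1755 called genes in PBS mice became 2930 on the 6 libraries alone with the replicate block, the fit with fewest residual degrees of freedom, and 1302 without the block. Leaving out single libraries gave 877 to 1622, and leaving out whole mice 577 to 1686. Other scaling, no filter, DESeq2, removal of mitochondrial ribosomal RNA and all 24 libraries in 1 model gave 1744 to 2053. In NRG1 mice the share of tested genes called, 6.38%, became 3.11% without the replicate block, 5.59% of a larger number of genes without the filter, and 1.29% to 5.26% with a mouse left out. For the difference between the steps, 63 genes passed without the filter, 1 by DESeq2 and 0 to 1 with a mouse left out. Over the named genes and all alternatives, 1830 values kept direction and call, 292 kept the direction without the call, 1 gained the call and 10 turned the direction. Those 10 were of genes not called: Tagln (0.13 without mouse 2), Cd24a (-0.08 without the Lgr5high library of mouse 1), Lyz1 (-0.04 without the same library), Pecam1 (-0.78 without that library and -0.05 without the Lgr5med library of mouse 3), and Epcam (-0.01 without mitochondrial ribosomal RNA, -0.08 without the Lgr5high library of mouse 2, -0.01 without the Lgr5med library of mouse 1 or 3, and -0.03 without mouse 2). With a library or mouse left out, values ran from -0.65 to 0.13 for Tagln, -0.08 to 0.23 for Cd24a, -0.04 to 1.24 for Lyz1, -0.78 to 2.04 for Pecam1 and -0.08 to 0.06 for Epcam. The cause of these shifts was not tested. Genes under about 1 CPM rest on few counts, and with 3 mice small steps remain below what the test can call.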

Other observations

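Genes of mucin-type O-glycosylation, which add sugar chains to mucins, were lower in Lgr5high cells of PBS mice. In this list, chosen after the values were seen, 23 of 30 tested fell and 1 rose, with a median log2 difference of -1.15. Gcnt3, a branching enzyme of mucin glycans, was at 11.9, 30.7 and 30.1 CPM in Lgr5high, against 64.3, 122 and 145 CPM in Lgr5med cells (-2.21, SE 0.153, adjusted p = 4.08e-08 by edgeR), with no overlap. C1galt1, which makes the core 1 structure, fell by 1.13 (SE 0.135, adjusted p = 9.96e-06), and B3galt5, a galactosyltransferase, by 3.63 (SE 0.543, adjusted p = 0.000138). The rise was that of St6galnac2, a sialyltransferase (0.44, adjusted p = 0.0159), whose call ended without the Lgr5high library of mouse 1 (0.0961) or the Lgr5med library of mouse 2 (0.0606) or 3 (0.147).

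Lists of granule docking, of early secretory transport and of annexins and S100 proteins, chosen in the same way, held more falls than rises. Calls were 41%, 55.4% and 58.8% of these lists, beside 12.4% of all genes tested. Of 39 genes of granule docking and exocytosis, 15 fell and 1 rose, with a median of -0.91. Syt7, a calcium sensor of vesicle fusion, was at 2.37, 3.83 and 3.67 CPM in Lgr5high, against 15.4, 35.9 and 27.7 CPM in Lgr5med cells (-2.96, SE 0.202, adjusted p = 4.08e-08), and Rab27a, a GTPase of secretory granules, fell by 2.78 (SE 0.284, adjusted p = 1.2e-05). The rise was that of Exph5, a RAB27 effector (0.60, adjusted p = 0.00654), with 0.0562 and 0.0907 without the Lgr5high and the Lgr5med library of mouse 3. Of 56 genes of translocation and early secretory transport, 31 fell and none rose, with a median of -0.46. Ostc, an oligosaccharyltransferase subunit, fell by 0.98 (SE 0.135, adjusted p = 5.49e-05). Of 17 annexin and S100 genes, 10 fell and none rose, with a median of -1.48. S100a6 was at 0.319, 1.78 and 0.905 CPM in Lgr5high, against 4.49, 10.2 and 14 CPM in Lgr5med cells (-3.19, SE 0.434, adjusted p = 0.000499). Goblet markers fell in the same libraries, and their part in these falls was not tested.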
